A study of Mus musculus with 2 samples.

Results

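Alcam and 9 related genes of the immunoglobulin superfamily of adhesion molecules were examined in the distal and proximal parts of mouse limb-mesenchymal organoids. The members were taken by symbol: Alcam, Ncam1, Mcam, Cadm1, Cadm2, Cadm3, Cadm4, Nectin1, Nectin2 and Nectin3. Of these 10 genes, 9 had a row among the 13916 protein-coding genes of the authors' deposited table, and Cadm3 had none and was not analysed here. The genes were chosen by name with the distal against proximal log2 changes and p-values of this same table known, so their differences are given as a description and support nothing further.

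Photo-isolation chemistry copies the RNA of a tissue section inside the section with caged primers, and ultraviolet light then frees the copies of chosen areas only. Limb mesenchymal cells of mouse embryos (Slc:ICR, no transgene named) were grown as organoids for 48 h in medium with Fgf8b plus Wnt3a. On day 2, 5 organoids that came from 4 surrogate cultures were snap-frozen. The distal group held 5 barcoded areas pooled into 1 library, and the proximal group 5 other areas pooled into 1 further library. Both groups shared strain, medium and age, and the age of the embryos and the organoid behind each area were not given in the sources used here. Side and library are the same split and cannot be told apart.

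Adhesion molecules of this superfamily carry extracellular immunoglobulin domains that bind the same molecule or a relative on the next cell, and a short tail that recruits scaffold proteins. Alcam (CD166) binds itself and CD6, and Ncam1 binds itself and is tuned by polysialic acid. Mcam (CD146) is best known from vessel walls, Cadm proteins pair cells through band 4.1 and PDZ scaffolds, and nectins join the actin belt through afadin. In the developing limb, Ncam1 is known from condensing cartilage precursors and from muscle precursors.

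Several members share a chromosome, at gaps between 0.327 Mb (Nectin1 to Mcam) and 14.2 Mb (Alcam to Cadm2). On GRCm38 with GENCODE M21, 4 lay on chromosome 9 (Nectin1, Mcam, Cadm1 and Ncam1, within 6.05 Mb), 3 on chromosome 16 (Nectin3, Alcam and Cadm2, within 21.2 Mb), 2 on chromosome 7 and Cadm3 on chromosome 1. Alcam (ENSMUSG00000022636) spans chr16:52248996-52454074 on the minus strand, and Ncam1 (ENSMUSG00000039542) spans chr9:49502136-49798925 on the minus strand. Genes on the opposite strand shared 417 exonic bases with Ncam1, 256 with Cadm2, 135 with Nectin2 and 17 with Mcam, and the strand of the counting was not given in the sources used here, so reads from those stretches cannot be told apart. No member had a near-identical copy in the last 300 bases of its coding transcripts.

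Promoters of 2 members from chromosome 16 are shown because they stand at the ends of the members' log2 changes: Cadm2 was the member with the lowest log2 change and Nectin3 the only one with a positive log2 change. Each line gives the 250 bases before the RefSeq start (GRCm38.p6, minus strand, written 5′ to 3′), Cadm2 at chr16:67620909-67621158 and Nectin3 at chr16:46496968-46497217. Capitals mark GC boxes (GGGCGG) and CCAAT boxes (CCAAT), searched on both strands.
Cadm2: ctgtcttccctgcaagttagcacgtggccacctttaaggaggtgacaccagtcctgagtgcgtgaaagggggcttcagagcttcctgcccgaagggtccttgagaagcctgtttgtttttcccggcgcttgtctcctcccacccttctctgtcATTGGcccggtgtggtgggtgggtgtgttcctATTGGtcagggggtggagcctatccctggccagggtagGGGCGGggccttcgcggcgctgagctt
Nectin3: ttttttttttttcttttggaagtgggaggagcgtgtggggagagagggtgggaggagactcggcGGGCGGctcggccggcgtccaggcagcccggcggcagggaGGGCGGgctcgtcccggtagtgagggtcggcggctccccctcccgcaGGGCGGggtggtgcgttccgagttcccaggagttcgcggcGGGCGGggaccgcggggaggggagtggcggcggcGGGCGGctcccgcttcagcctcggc
The Cadm2 window held 1 GC box, 2 CCAAT boxes and 10 CG pairs, and the Nectin3 window 5 GC boxes, no CCAAT box and 30 CG pairs. Among 32851 RefSeq promoter windows of this length, 32.7% held a GC box and 33.8% a CCAAT box, and the median number of CG pairs was 6. Neither TATAAA nor the E-box CAGCTG was found in these 2 windows, against 12.4% and 13.0% of all windows. A match of letters is a description of the sequence and not a bound site.

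The table gives 1 mean per gene over all areas, and whole counts per area were computed from it for 7 of the 9 members. These counts were divided by each area's size factor, which gives the normalized counts used below. Areas are numbered from the deepest to the shallowest within a side, not by the submitters' numbers. Summed over the genes of the table, the counts correspond to 214774 to 345649 per proximal area and 46991 to 118978 per distal area, so the distal side was read 3.30 times less deeply. Over a side, 3 counts correspond to a normalized count of 1.02 in distal and 0.311 in proximal. Areas of a side share a library, so the spread between them may be in part technical.

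Alcam, which marks many mesenchymal and nerve cells and holds them together through self-binding, was far higher in the proximal areas. Proximal areas 1 to 5 held normalized counts of 45.5, 40.3, 27.6, 35.7 and 35.9 (from 110, 89, 54, 56 and 54 counts). In distal areas 1 to 5 the values were 9.61, 14.3, 5.37, 9.80 and 3.04 (from 8, 10, 3, 5 and 1 counts). The lowest proximal area stood above the highest distal area, so the sides did not overlap. The normalized count was 37.0 ± 6.59 in proximal and 8.43 ± 4.37 in distal (SD, n = 5 areas each). Summed over the areas, Alcam was 4.08-fold higher in proximal (95% exact binomial interval of the counts 2.76 to 6.27, counting error only). In bulk areas such as these, fewer cells with Alcam and less Alcam RNA per cell cannot be told apart.

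The log2 change of Alcam, distal against proximal, was -2.03 in the authors' deposited table (standard error, SE, 0.34, adjusted p 1.82e-06 by their Wald test). That log2 change alone, without the counts per area, gives the same 4.08-fold. The counts were kept only because they gave this log2 change, so the match is no second measurement. The set of counts per area rests on a narrow margin: the next best set missed the log2 change by 1.3e-09, against an allowed 1e-09, though it had a far lower likelihood. Alcam was 1 of 2 members with an adjusted p under 0.05, with Ncam1, and both were higher in proximal. Among all 13916 genes 0.977% passed this limit, 0.582% as higher in proximal and 0.395% as higher in distal. Nothing is read from that comparison, because the choice of members used this contrast.

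**Figure D1:**
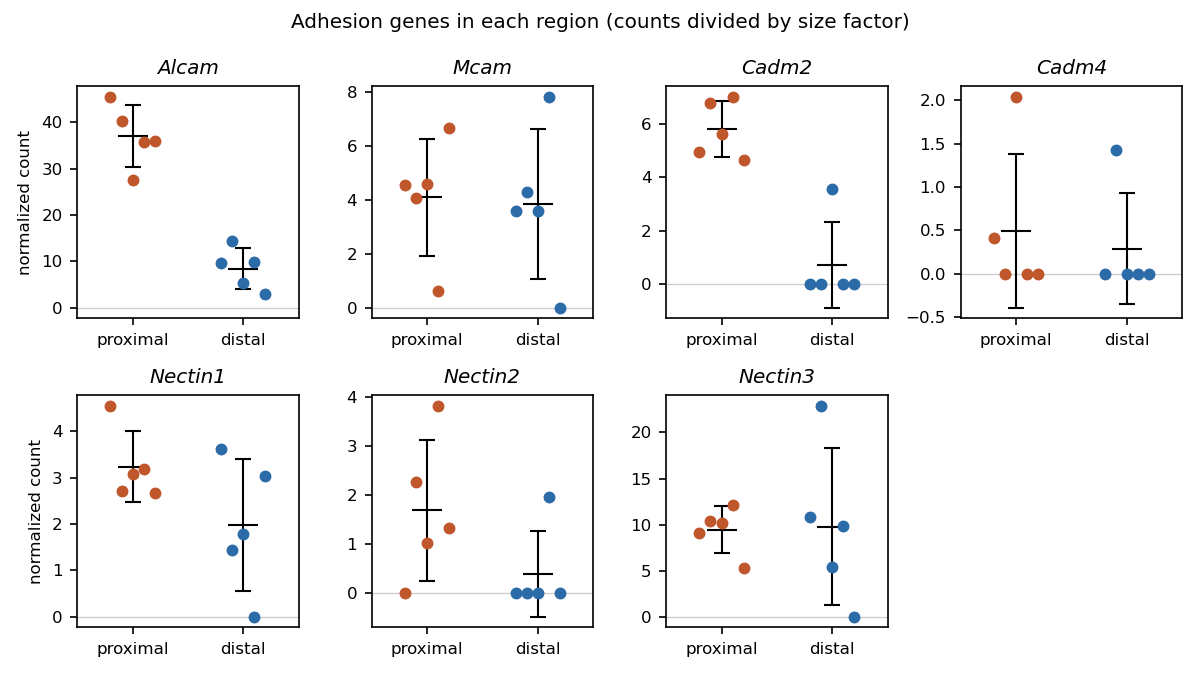
Normalized counts (y axis, counts divided by size factor) of 7 adhesion genes in 5 proximal (orange) and 5 distal (blue) areas, with mean and SD in black. Alcam and Cadm2 have no overlap between the sides, with lowest proximal values of 27.6 and 4.66 and highest distal values of 14.3 and 3.58. Of 31 other immunoglobulin adhesion genes with computed counts, 3 had no overlap either, in 1 or the other direction. Among these, Cntn3 and Dscaml1 had only 10 and 6 proximal counts and no distal count, at the lower distal depth. A lack of overlap can thus rest on few counts. The share over all genes was not computed.

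Ncam1, the neural cell adhesion molecule, was also higher in proximal. Its mean in the authors' deposited table was 55.9 and its log2 change -0.78 (SE 0.19, adjusted p 0.00640). The fold from that log2 change was 1.72 (95% interval from the deposited standard error 1.33 to 2.22). Counts per area were not computed for Ncam1 and Cadm1, whose counts allow too many sets to try. Its deposited mean and log2 change correspond to normalized counts of about 70.7 in proximal and 41.1 in distal, or about 683 and 120 counts over a side.

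Most muscle markers were higher in proximal, as were Alcam and Ncam1. Of 12 skeletal muscle markers, 11 had a negative log2 change, with a list median of -2.84. The 5 that passed the limit, all higher in proximal, were Myog, a factor that starts muscle differentiation, and Actc1, Myh3, Myl1 and Tnnt1 of the contractile apparatus. Summed over the 10 markers with computed counts (all but Actc1 and Myl1), their level ran from 31.3 to 76.6 in the proximal areas and from 0 to 11.8 in the distal areas. Pax3, Pax7, Myf5, Des and Cdh15 had no count in any distal area, against 19, 2, 27, 9 and 12 counts over the proximal areas. From the 2 proximal counts of Pax7, at the lower distal depth, no difference can be read. The same holds for Des and Cdh15, whose exact binomial intervals of the proximal over distal ratio start at 0.599 and 0.843. Those of Pax3 and Myf5 start at 1.42 and 2.07, for counting error only, and neither gene passed the limit. In proximal areas 1 to 5 the muscle sum was 67.4, 74.6, 40.9, 31.3 and 76.6, beside 45.5, 40.3, 27.6, 35.7 and 35.9 of Alcam. In distal areas 1 to 5 it was 0, 10.0, 1.79, 11.8 and 3.04, beside 9.61, 14.3, 5.37, 9.80 and 3.04 of Alcam. Both quantities were higher in every proximal area than in any distal area. The part of muscle cells in the Alcam and Ncam1 differences was not tested. Pericyte and smooth muscle markers, 8 of 10 in the table, had a median log2 change of 0.03, with 5 of the 8 positive. Over the 6 with computed counts they summed to 28.1 to 45.1 in proximal and 6.09 to 25.5 in distal areas. Acta2, the smooth muscle actin that young muscle cells also make, was the only 1 of them to pass the limit, with 250 proximal and 4 distal counts. Without Acta2 the sums of the other 5 overlapped, from 7.99 to 14.8 in proximal and from 6.09 to 23.5 in distal areas. The part of Acta2-expressing cells was not tested either. Cartilage markers, set beside Ncam1 for its place in condensations, had a median log2 change of 0.12 over 9 genes. Of these 6 were positive and 3 negative. Sox9, the cartilage master regulator, was the only cartilage marker called, at 0.69 in the authors' deposited table and so higher in distal. Acan, picked out after its values were seen, lay the other way at -1.57, with 69 proximal and 7 distal counts. It did not pass the limit (adjusted p 0.790 by the authors' Wald test), so the list gives cartilage no single direction.

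**Figure D2:**
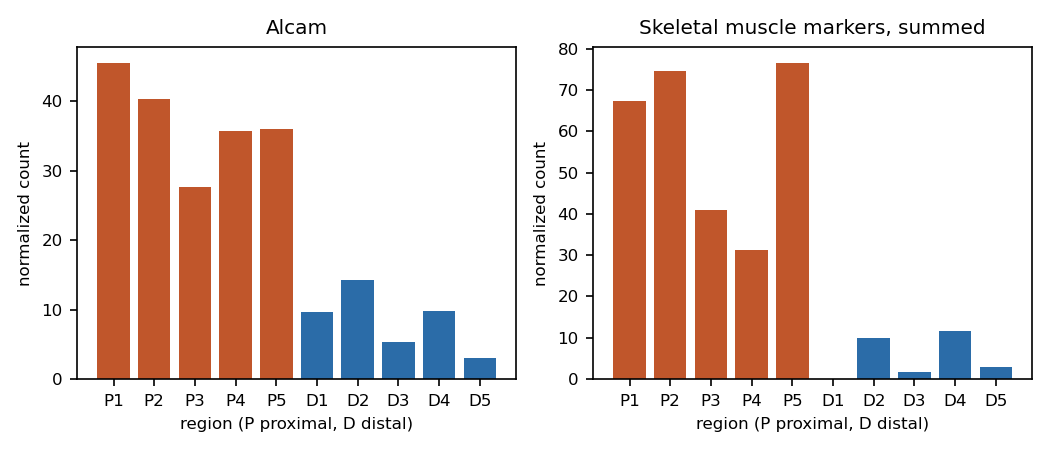
Normalized counts (y axis) of Alcam (left) and of 10 skeletal muscle markers summed (right) in each proximal (P1 to P5, orange) and distal (D1 to D5, blue) area. From P1 to P5 Alcam lies at 45.5, 40.3, 27.6, 35.7 and 35.9 and the muscle sum at 67.4, 74.6, 40.9, 31.3 and 76.6, and both are lower in all distal areas.

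Mcam, a receptor of vessel walls that binds laminin, did not separate the sides. Normalized counts were 4.55, 4.07, 4.60, 0.638 and 6.66 in proximal areas 1 to 5 and 3.61, 4.30, 3.58, 7.84 and 0 in distal areas 1 to 5. The ranges overlapped almost fully, with means of 4.103 ± 2.18 in proximal and 3.86 ± 2.79 in distal (SD, n = 5 areas each). From 40 proximal and 12 distal counts, the proximal over distal ratio was 1.01 (95% exact binomial interval 0.520 to 2.12), an interval that still holds a 2-fold difference. Its log2 change in the authors' deposited table was -0.02 (SE 0.64). Endothelium markers were scarce: 6 of 10 had a row, none was called, and their sum ran from 0.414 to 2.71 in proximal and from 0 to 7.16 in distal areas. Pdgfrb and Notch3 of the pericyte and smooth muscle list, picked out after their values were seen, had log2 changes of 0.03 each. Their means were 20.5 for Pdgfrb and 18.4 for Notch3 by the authors' deposited table. Of the same list, Cspg4 had a mean of 8.73, while Rgs5 and Abcc9 were near the floor at 0.948 and 0.0452. The part of pericytes in the Mcam values was not tested.

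None of the Cadm genes, also called synaptic cell adhesion molecules or nectin-like genes, passed the limit. Cadm1 had a mean of 30.0 in the authors' deposited table, and its log2 change was -0.29 (SE 0.24), which leaves a proximal over distal fold between 0.889 and 1.69. Cadm2, which joins nerve cells and their wrapping glia, was counted almost only in proximal. Proximal areas 1 to 5 held 4.96, 6.79, 5.62, 7.02 and 4.66 of Cadm2 (12, 15, 11, 11 and 7 counts). Distal area 3 held 2 counts, a normalized count of 3.58, and the other 4 distal areas had no count. The sides did not overlap, with 5.81 ± 1.06 in proximal and 0.716 ± 1.60 in distal (SD, n = 5 areas each).

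From 56 proximal and 2 distal counts of Cadm2 the ratio was 8.49 (95% exact binomial interval 2.24 to 71.9, counting error only). The log2 change of -2.99 for Cadm2 in the authors' deposited table (SE 0.98, adjusted p 0.166) did not pass the limit. It was thus the member with the lowest log2 change and not one of the 2 called. Its deposited unadjusted p was 0.00235, and 3 of the 9 members had an unadjusted p under 0.05, against 6.07% of all genes. Neural and glial markers overlapped between the sides, with sums from 8.93 to 21.3 in proximal and from 1.96 to 12.2 in distal areas, and none of the 9 in the table was called. Among them Ngfr, the low-affinity nerve growth factor receptor, named here after its values were seen, had 53 proximal counts and 1 distal count. Its log2 change of -3.49 (SE 1.11, unadjusted p 0.00167, adjusted p 0.133) in the authors' deposited table lay on the same side as that of Cadm2. Without Ngfr the marker sums ran from 5.74 to 11.6 in proximal and from 1.96 to 12.2 in distal areas. The part of neural and glial cells in the Cadm2 values was not tested.

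Cadm4, known from myelinating glia and epithelia, was close to absent. It had 5 proximal counts, 4 of them in area 3 and 1 in area 1, and 1 distal count in area 2. The ratio of 1.52 had an exact binomial interval from 0.170 to 71.7, so no difference was detectable at this depth.

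Nectins start cell-cell contacts and bind across subtypes, so Nectin1 on 1 cell can hold Nectin3 on the next. Nectin3 was present on both sides. Its normalized counts were 9.10, 10.4, 10.2, 12.1 and 5.33 in proximal areas 1 to 5 and 10.8, 22.9, 5.37, 9.80 and 0 in distal areas 1 to 5. The distal values enclosed all proximal ones, at 9.78 ± 8.49 against 9.44 ± 2.54 in proximal (SD, n = 5 areas each). From 92 proximal and 33 distal counts the proximal over distal ratio was 0.846 (95% exact binomial interval 0.563 to 1.30). Distal area 2 carried 16 of the 33 distal counts, and without it the fitted log2 change moved from 0.18 to -0.38.

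Nectin1 was counted in every proximal area, at 4.55, 2.71, 3.07, 3.19 and 2.66, and in 4 of 5 distal areas, at 3.61, 1.43, 1.79, 0 and 3.04. The sides overlapped, and the ratio of 1.62 from 32 proximal and 6 distal counts had an exact binomial interval from 0.667 to 4.73. Nectin2 had 15 counts over 4 proximal areas and 1 count in distal area 4. Its ratio of 4.55 had an exact binomial interval from 0.700 to 192, and its log2 change was -1.75 (SE 1.34) in the authors' deposited table. Neither gene was called, and with 6 and 1 distal counts a moderate difference was not detectable.

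**Figure D3:**
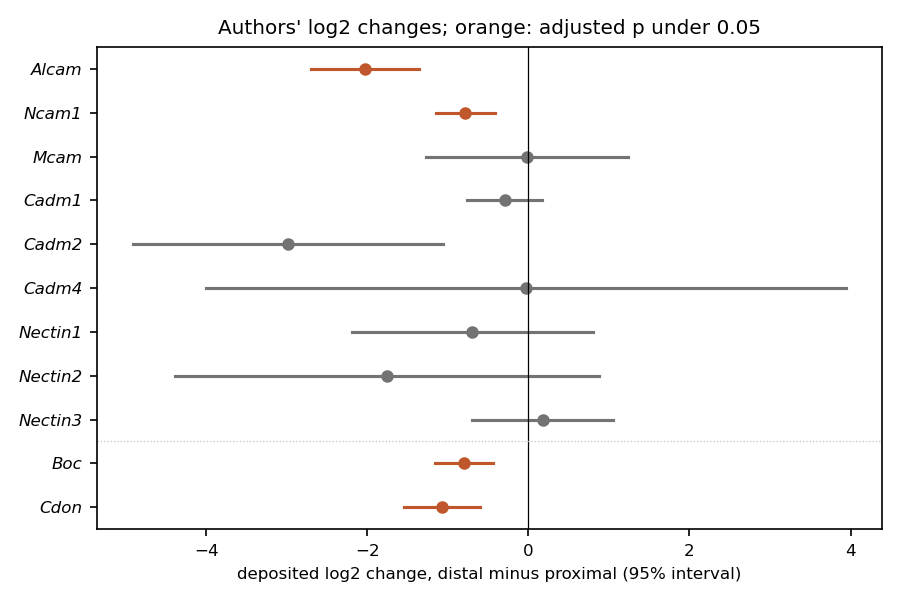
Deposited log2 change, distal minus proximal (x axis), with the 95% interval from the deposited standard error, for the 9 members and, under the dotted line, Boc and Cdon. Orange marks an adjusted p under 0.05. The intervals of Alcam (-2.70 to -1.36) and Ncam1 (-1.15 to -0.41) lie below 0, as does that of Cadm2 (-4.91 to -1.06), which was not called.

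Of the 9 members, 8 had a negative log2 change and 1 a positive one, with a median of -0.69. Over all genes of the authors' deposited table the median was 0.07 and 45.5% were negative, and among genes with a mean above the median these were -0.02 and 51.8%. This count includes members such as Mcam and Cadm4 whose log2 changes, -0.02 and -0.03, were far smaller than their standard errors.

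**Figure D4:**
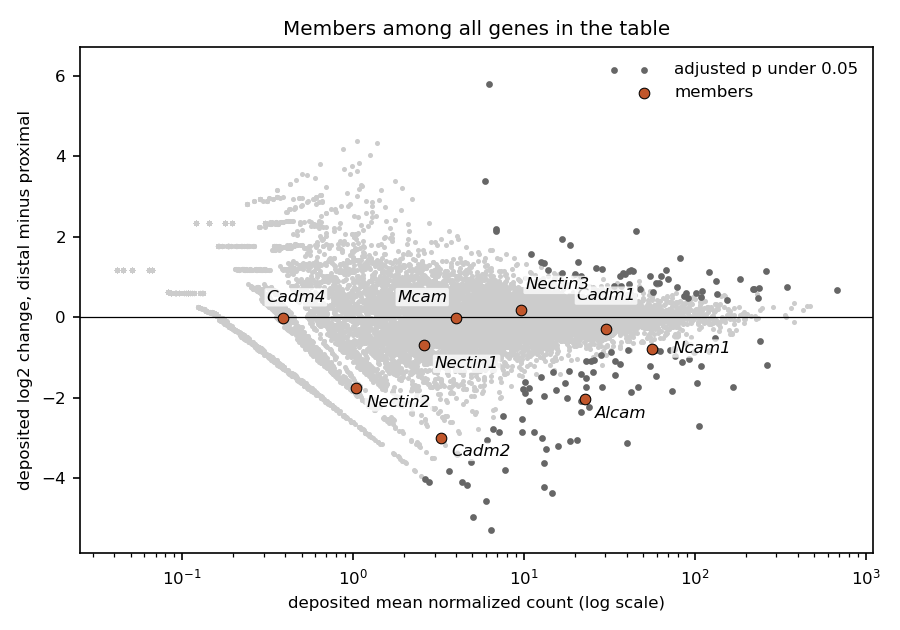
Deposited log2 change, distal minus proximal (y axis), against the deposited mean normalized count (x axis, log scale) for all 13916 genes, with genes at an adjusted p under 0.05 in dark grey and the 9 members in orange. Alcam stands at a mean of 22.7 and -2.03, and Cadm2, at a mean of 3.26 and -2.99, lies where the scatter of all genes is wide.

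The rest of the superfamily was read from a list of 55 further immunoglobulin adhesion genes, of which 39 had a row. Boc and Cdon, surface co-receptors for hedgehog that also act in muscle cell contact, were the 2 that passed the limit, and both were higher in proximal. Cdon (ENSMUSG00000038119, chromosome 9) had -1.07 as its log2 change (SE 0.24, adjusted p 0.00152) in the authors' deposited table. Boc (ENSMUSG00000022687, chromosome 16) had -0.80 there (SE 0.18, adjusted p 0.00255). The skeletal muscle sums given above were also higher in proximal, and the part of muscle cells in the Boc and Cdon differences was not tested. Counts per area were not computed for Boc or Cdon. The list's median log2 change was 0.03, with 19 genes negative and 20 positive. Of the 39 genes, 8 had an unadjusted p under 0.05, against 6.07% of all genes, and nothing further is read from that count.

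Other genes of this list were picked out after their values were seen. Cd47, a receptor for thrombospondin and a signal against engulfment, had a log2 change of -0.83 (adjusted p 0.0808) in the authors' deposited table. Kirrel, a nephrin relative, lay the other way. Its normalized counts had a mean of 1.31 ± 0.557 in proximal and 5.26 ± 1.60 in distal (SD, n = 5 areas each), and its highest proximal area (2.04) lay below its lowest distal area (3.58). It was 3.80-fold higher in distal from 13 proximal and 15 distal counts, and the authors' deposited table gave 1.95 as its log2 change (adjusted p 0.209). L1cam, a nerve adhesion molecule, had 3, 7, 4, 0 and 1 counts in proximal areas 1 to 5 and none in distal, so the areas overlapped at 0. With the distal side taken at 3 counts, the proximal over distal ratio of L1cam was 1.52. The exact binomial interval of its counts starts at 1.09, and the interval from the deposited standard error, 0.604 to 32.2, includes equal levels. Its log2 change of -2.14 (SE 1.46, adjusted p 0.991) in the authors' deposited table did not pass the limit.

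Scaffold and partner genes of the members were examined next, in 4 lists with 49 genes in the table. None had an adjusted p under 0.05, and 4 of the 49 had an unadjusted p under 0.05, against 6.07% of all genes. The medians were 0.04 for the nectin and afadin adaptors (16 genes), 0.08 for the Cadm scaffolds and band 4.1 proteins (13), -0.09 for the genes that bind, anchor or shed Alcam and Mcam (9) and -0.11 for Ncam1 signalling and polysialylation (11). The 2 genes with the highest mean are given for each list. The authors' deposited table listed log2 changes of 0.07 (SE 0.15) for Ctnna1, alpha-catenin, -0.09 (SE 0.16) for Rdx, radixin, and -0.11 (SE 0.16) for Fgfr1, a receptor that Ncam1 engages. They were 0.28 (SE 0.19) for the actin linker Actn1, 0.04 (SE 0.21) for Sdcbp, syntenin, and 0.20 (SE 0.21) for Sptbn1, beta-spectrin.

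Epb41l3, a band 4.1 protein that binds the Cadm1 tail, stood at -0.46 on the same scale (SE 0.16, adjusted p 0.198), and Farp1, a further Cadm1 partner, at 0.21 (SE 0.18) in the authors' deposited table. Afdn, the afadin gene, was picked out after its values were seen. Its normalized counts ran from 9.71 to 17.2 in proximal, with a median of 12.8, and from 1.79 to 7.21 in distal, with a median of 3.04. The sides did not overlap for Afdn, and the ratio from 125 proximal and 12 distal counts was 3.16 (95% exact binomial interval 1.75 to 6.28). In the authors' deposited table its log2 change was -1.71 (adjusted p 0.0738), so afadin did not pass the limit.

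**Figure D5:**
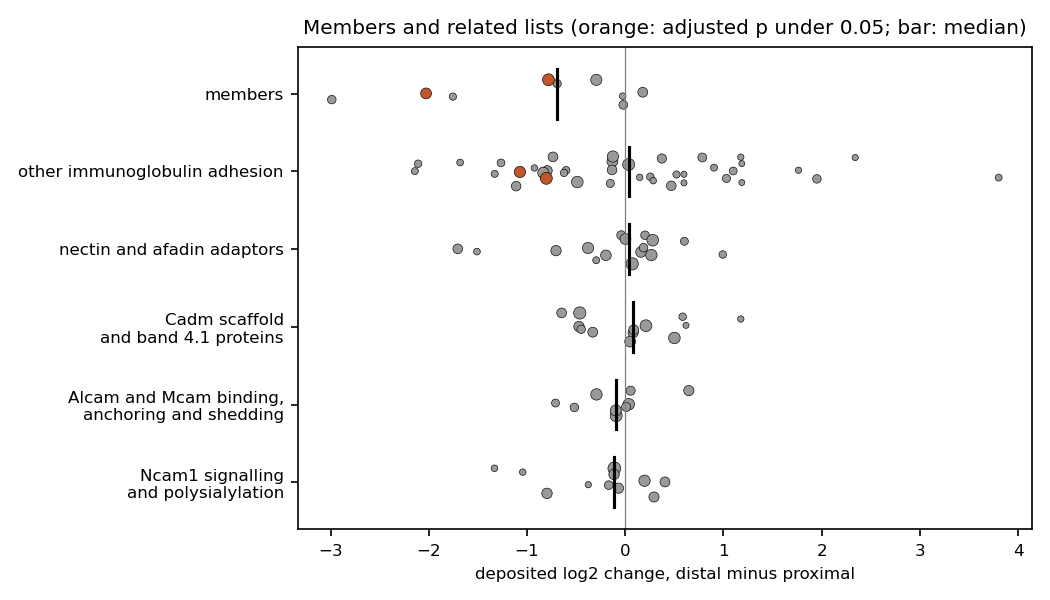
Deposited log2 change, distal minus proximal (x axis), of each gene of the members and of 5 related lists (rows). Larger points have higher means, black bars are list medians and orange marks an adjusted p under 0.05. Called genes are Alcam and Ncam1 among the members and Boc and Cdon among the other adhesion genes, and the medians of the related lists lie between -0.11 and 0.08.

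The genes most like Alcam were read as those called in the same direction, with a mean within 2-fold of Alcam's and the nearest log2 change, among 35 such genes. They were Sfrp2, a secreted Wnt modulator, at -2.01, Pbx3, a homeobox gene, at -2.08, and Mab21l1 at -1.95 in the authors' deposited table, against -2.03 for Alcam. Likeness here means 1 log2 change over 2 libraries.

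Cell identity was checked against markers. All 10 limb mesenchyme markers had a row, and Prrx1 and Twist1, which mark limb mesenchyme, had means of 159 and 74.0 in the authors' deposited table. Of the mesenchyme markers 4 were called: Hoxd13 (1.16) and Msx1 (1.12), which mark the distal limb bud, were higher in distal, and Pdgfra (-0.86) and Tbx5 (-1.41) higher in proximal, as log2 changes of the authors' deposited table. Surface ectoderm markers were scarce, with 5 of 10 in the table and sums from 2.48 to 5.33 in proximal and from 5.37 to 21.3 in distal areas. In the distal areas nearly all of this was Tfap2a, a transcription factor of ectoderm and mesenchyme, which was called as higher in distal. Over the proximal areas its part was smaller, with 1.36 of the sum of 2.71 in area 2. The other 4 (Epcam, Cdh1, Krt14 and Trp63) summed to 0.511 to 1.36 in proximal and 0 to 1.96 in distal areas. Cdh1, Krt14 and Trp63 had no distal count, and only 1, 1 and 3 proximal counts. Blood cell markers, 6 of 10 in the table, summed to 2.04 to 8.69 in proximal and 1.20 to 7.84 in distal areas.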

How the data were processed

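The file analysed is the authors' own distal against proximal comparison, with the columns of a DESeq2 results table per the file headers. The authors' mean is a signal in normalized counts over all areas, and the deposited log2 change and standard error are their fit. The statistic is a score that the authors deposited, and the p-value and adjusted p are deposited too. The submitters' processing notes name mm10 and GRCm38, while aligner, counting and annotation are not given in the sources used here. No count test was run. A call is a deposited adjusted p under 0.05.

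The lowest means repeat on steps worth 1 count in 1 area, each shared by at least 20 genes, which gave 10 size factors. The side of an area was read from the direction in which 1 count there moved the authors' log2 change. Counts per area were taken where only 1 set of whole numbers gave the deposited mean and, in a negative binomial fit at the deposited standard error, the deposited log2 change within 1e-09. For genes with a mean of 5 or more, sets far from the deposited log2 change were not tried. This held for 103 of 104 list genes tried and for 199 of 200 other genes. Tested on simulated data, all 100 genes and a gene like Alcam gave back their counts. Of 56873897 sets tried for Alcam, 1 matched, and the next best missed by 1.3e-09 with a log likelihood of -94.0 against -30.5. For other genes side levels were computed from mean and log2 change. On 32 list genes the counts so computed had a median error of 3.35% in proximal and 4.07% in distal, and a largest error of 28.9%.

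The members and lists were chosen with earlier results of these data known. Named are all members, called genes of the lists, otherwise the 2 genes with the highest mean of a list, and 3 genes like Alcam. Acan, Cntn3, Dscaml1, Pdgfrb, Notch3, Cspg4, Rgs5, Abcc9, Prrx1 and Twist1 fall outside this rule and were named after their values were seen. The marker sums without Acta2, Tfap2a or Ngfr were also added after the values were seen. Python 3.11.15, numpy 2.4.6, scipy 1.17.1, statsmodels 0.14.6 and BLAST 2.17.0 were used, the last for copies of at least 200 bases at 95% identity. Intervals from counts (exact binomial) cover counting error only, while those from the deposited standard error also hold the spread between areas in the authors' fit.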

Additional observations from a re-analysis of the deposited data

Results flagged for a closer look

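Single areas stood far from the other 4 areas of their side in 5 of the 14 sets of 5 areas examined, by Dixon's limit of 0.71, which chance passes in about 1 of 20 sets of continuous values. That rate does not apply to 3 of them, distal Cadm2, Cadm4 and Nectin2, where the other 4 areas were at 0 and any count passes the limit by construction. Cadm2 was at 3.58 in distal area 3, from 2 counts, with the other distal areas at 0. Cadm4 was at 2.04 in proximal area 3, from 4 counts, and at 1.43 in distal area 2, from 1 count. Nectin2 was at 1.96 in distal area 4, from 1 count. Nectin1 was at 4.55 in proximal area 1, from 11 counts, where the other proximal areas lay between 2.66 and 3.19. In Alcam no area was set apart in this way on either side.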

How the results depend on the processing

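Alcam and Ncam1 remained the 2 members called under all 5 alternatives (adjusted p under 0.01, p adjusted over the genes in the file, a mean of at least 10, and both centrings). Of the 88 related genes, 2 were called, and the number was 2 or 3 under 4 alternatives and 4 once log2 changes were set against the all-gene median, where Cd47 and Afdn joined Boc and Cdon. Of 92 log2 changes of members under an alternative, 91 moved by less than their standard error and 1, Nectin3 without distal area 2, by more (-0.38). Both centrings subtract a constant, 0.07 or -0.02, that is smaller than every member's standard error, so these values could not have moved. The ratios of summed counts use counts kept only where they gave the deposited log2 change. The total therefore says little beyond the areas left out in turn. Leaving out each area in turn gave -2.30 to -1.89 for Alcam, -3.05 to -2.57 for Cadm2, -0.36 to 0.19 for Mcam, -1.18 to -0.41 for Nectin1, -2.10 to -1.22 for Nectin2, -0.38 to 0.40 for Nectin3 and -0.36 to 1.61 for Cadm4. For Cadm2, Cadm4 and Nectin2 the area with all distal counts could not be left out. No area could be left out for Ncam1 and Cadm1, whose counts per area were not computed. No paired analysis was possible because the areas carry no numbers that tie them across sides. Depth limits the members with few distal counts: 1 each for Cadm4 and Nectin2, 2 for Cadm2 and 6 for Nectin1.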
